A study of Homo sapiens with 12 samples.

Results

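The genes described here encode apolipoproteins and the protein that loads lipid onto them: APOA1, APOA2, APOA4, APOB, APOC1, APOC3, APOE, APOH, APOM and MTTP. They were followed in Caco-2 cells, a human colonic adenocarcinoma line with features of absorptive enterocytes. The array held 1 probe for each of the 10 genes, taken as every probe whose only gene symbol is a listed name. A probe was kept if all 3 arrays of some group detected it, at a detection p-value (the array software's test against negative control probes) below 0.05. By that rule 9 of the 10 probes were kept, among 17413 kept probes of the 47323 on the array. The 8 probes for APOA1, APOA2, APOB, APOC1, APOC3, APOE, APOH and APOM were detected on all 12 arrays. The probe just inside the rule was that for MTTP, detected on 9 arrays, and the probe outside it was that for APOA4, detected on 1.

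The arrays formed 4 groups of 3. Cells transfected with ON-TARGETplus siRNA against MTF1, the zinc-sensing transcription factor that activates metallothionein genes, were measured at 150 µM and at 3 µM zinc, called here high and low zinc. Cells transfected with a non-targeting control siRNA were measured at the same zinc concentrations. All groups were transfected with lipofectamine RNAiMAX, and no untransfected cells were measured. The labels give no duration for knockdown or zinc, and do not say whether the 3 samples of a group were separate cultures, so p-values cover only the spread between these samples. The series' design text names another target, ZNF658, whereas the title and every sample label name MTF1, and the labels were followed.

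Apolipoproteins are the protein part of lipoprotein particles. Enterocytes and hepatocytes assemble APOB-containing particles, chylomicrons and very-low-density lipoproteins, in the endoplasmic reticulum. There the microsomal triglyceride transfer protein, whose large subunit MTTP encodes, passes lipid to the growing APOB chain. APOA1 and APOA2 are the main proteins of high-density lipoprotein, and the small C apolipoproteins, APOE and APOM move between particle classes. Caco-2 cells are a common model for the secretion of such particles.

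Between 18191 and 19469 of the probes were detected per array, and the median raw intensity per array lay between 121.6 and 134.8. The MTF1 probe averaged 5.72 ± 0.48 log2 units with MTF1 siRNA and 6.70 ± 0.13 with control siRNA at high zinc (SD, n = 3 each), a change of -0.98 ± 0.22 (SE, adjusted p = 0.0442). At low zinc it averaged 5.90 ± 0.33 with MTF1 siRNA and 6.61 ± 0.15 with control siRNA, a change of -0.71 ± 0.22 that did not pass (adjusted p = 0.207). Of 8 intestinal epithelial markers, 6 were above background, among them villin (VIL1) and the liver-intestine cadherin CDH17, while KRT20 and LGALS4 were not. Bulk RNA cannot tell a smaller share of expressing cells apart from less RNA per cell.

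Several of these genes lie close together. In GRCh38.p14, APOA1 (chr11:116835751-116837622), APOC3 (chr11:116829907-116833072) and APOA4 (chr11:116820700-116823304) follow each other, with 2678 bases between APOA1 and APOC3 and 6602 between APOC3 and APOA4. APOE (chr19:44905796-44909393) and APOC1 (chr19:44914325-44919346) are 4931 bases apart. The others lie alone, APOB at chr2:21001429-21044073, MTTP at chr4:99564130-99623997, APOA2 at chr1:161222292-161223628, APOH at chr17:66212033-66229415 and APOM at chr6:31652404-31658210.

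RefSeq promoter windows of 300 bases, 250 before and 50 after a transcript start, were matched for 7 of the 10 genes, 10 windows in all, with none matched for APOA1, APOB and APOC3. They were searched on both strands for letters of the sites of MTF1 and of the hepatocyte nuclear factors HNF4 and HNF1, known regulators of apolipoprotein genes. The metal response element core, TGCACNC or TGCGCNC, occurred in 0 of the 10 windows and in 29.6% of all 35116 windows. The HNF4 letters CAAAGNNCA occurred in the APOM window and in 5.28% of all windows, and the HNF1 consensus occurred in none of the 10 and in 0.322% of all. After the MTTP windows had been read, the palindromic centre of an HNF1 site, and an HNF4 half-site, AAAGGTCA, were searched for as well. Both occurred in 1 MTTP window, as that reading had already shown, so their presence there is a description and no search result. Of all windows 0.094% hold the HNF1 centre and 1.22% the half-site. The windows that held a match are shown. APOM and MTTP fell at high zinc with both siRNAs, but so did APOC1 and APOH, whose windows held no match. Any part of these letters in the zinc changes was not tested. Capitals mark the HNF4 match in APOM, whose first base is 214 bases before the transcript start of that window. In MTTP they mark the HNF1 centre 109 bases and the HNF4 half-site, on the reverse strand, 50 bases before its transcript start. Both transcript starts lie inside the gene spans given above, not at their first bases. The MTTP window at the first base of the gene span, chr4:99563880-99564179, held no match. A match of letters does not show that a factor binds there.
APOM, chr6:31655644-31655943, plus strand: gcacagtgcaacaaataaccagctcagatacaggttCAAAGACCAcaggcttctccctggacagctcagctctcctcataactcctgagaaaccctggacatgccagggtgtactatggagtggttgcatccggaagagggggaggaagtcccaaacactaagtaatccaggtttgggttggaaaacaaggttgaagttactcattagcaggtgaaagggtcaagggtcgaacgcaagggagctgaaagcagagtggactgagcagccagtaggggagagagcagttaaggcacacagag
MTTP, chr4:99574574-99574873, plus strand: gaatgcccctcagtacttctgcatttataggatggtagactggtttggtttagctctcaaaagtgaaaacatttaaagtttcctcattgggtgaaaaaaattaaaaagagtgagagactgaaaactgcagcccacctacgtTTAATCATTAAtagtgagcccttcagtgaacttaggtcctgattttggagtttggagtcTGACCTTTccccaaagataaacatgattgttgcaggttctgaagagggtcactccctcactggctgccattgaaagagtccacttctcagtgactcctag

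Most of these genes were lower at high zinc with either siRNA. With control siRNA, 8 of the 9 probes fell (88.9%, against 8.73% of all kept probes), none rose (against 8.43%), and APOE did not pass. With MTF1 siRNA, 7 of the 9 fell (77.8%, against 7.93% of all kept probes), none rose (against 7.06%), and APOA2 and APOE did not pass. The median change was -0.80 log2 units with control siRNA and -0.78 with MTF1 siRNA, against 0.00 and -0.01 over all kept probes. The genes were chosen with earlier results of these data known. Their shares, here and below, are therefore a description and no independent test. Tests were limma's moderated tests on normalised log2 intensity over all 12 arrays, with Benjamini-Hochberg adjustment over the kept probes, and "rose" and "fell" mean an adjusted p under 0.05. In the fits without control siRNA at high zinc replicate 3, or at low zinc replicate 2 or 3, only 5 of the 9 probes passed for zinc with control siRNA.

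**Figure D1:**
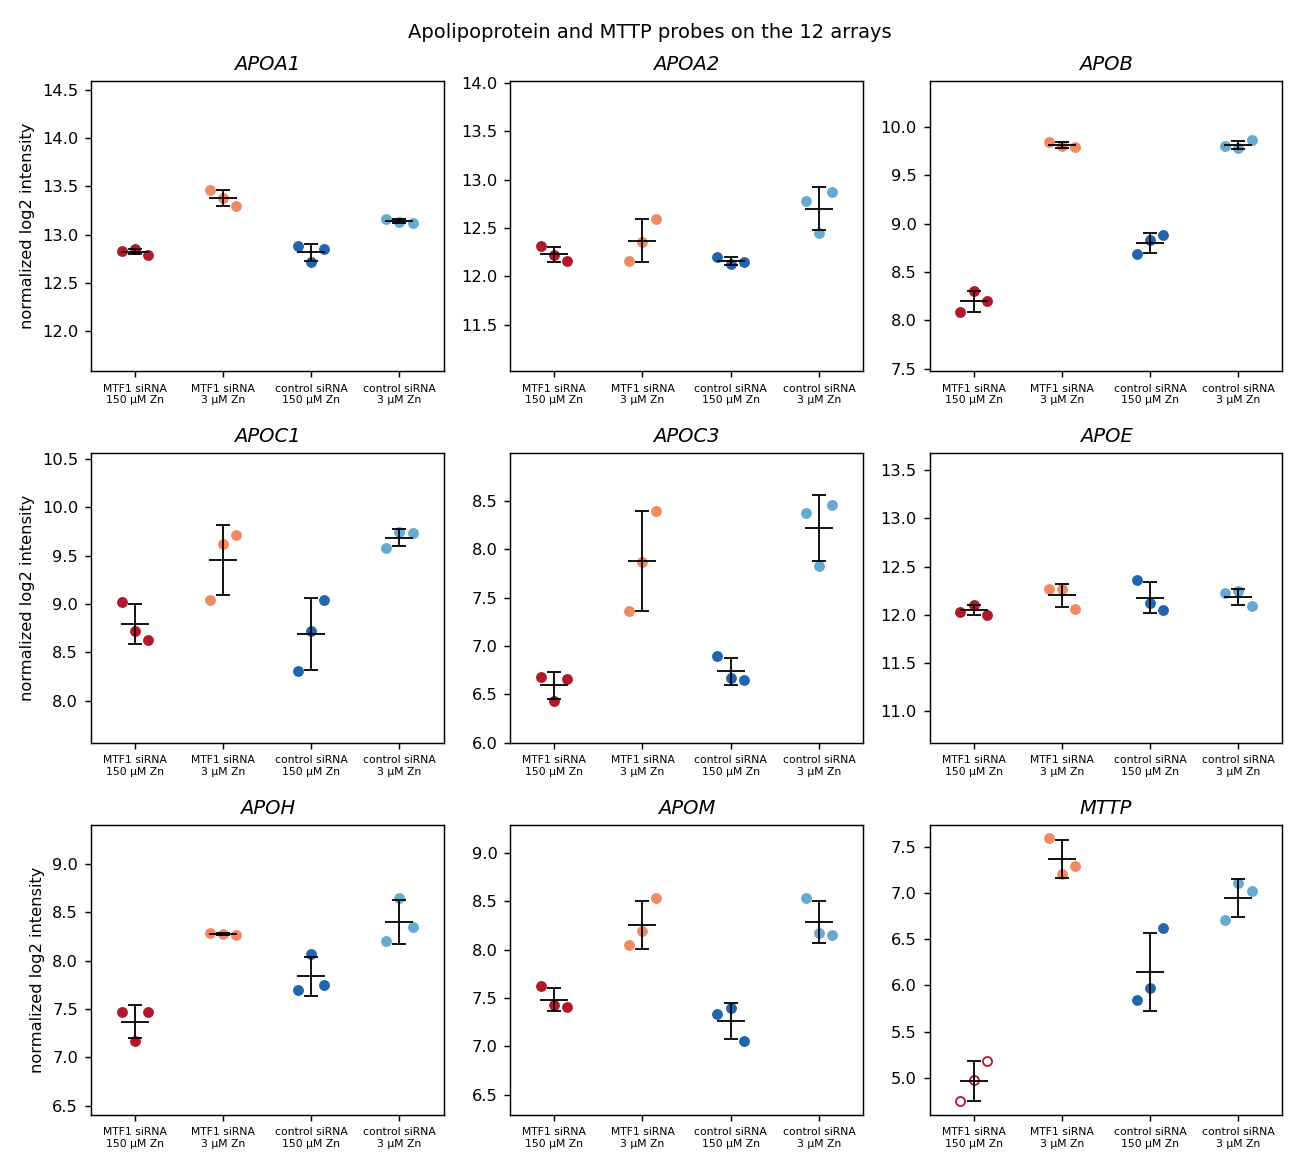
Normalised log2 intensity of each of the 9 probes on every array, by siRNA and zinc. Points are arrays, open where the probe was not detected, and bars give the mean and SD of 3 arrays. APOB and MTTP are lowest with MTF1 siRNA at high zinc, and the APOE groups overlap.

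APOB, the structural protein that stays with its particle from assembly to uptake, had the lowest adjusted p of these genes in either zinc comparison. With MTF1 siRNA its log2 intensity was 8.09, 8.31 and 8.20 at high zinc and 9.85, 9.80 and 9.79 at low zinc. The control siRNA arrays gave 8.68, 8.83 and 8.89 at high zinc and 9.80, 9.78 and 9.86 at low zinc. The high-zinc arrays of each siRNA lay below all low-zinc arrays, and the MTF1 siRNA arrays at high zinc lay below every other array. APOB fell at high zinc by 1.61 ± 0.09 log2 units with MTF1 siRNA, 3.06-fold (SE, adjusted p = 3.58e-07). With control siRNA the fall was 1.02 ± 0.09, 2.02-fold (adjusted p = 2.76e-05).

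MTTP, the lipid transfer subunit needed for APOB secretion, also fell with both siRNAs. With MTF1 siRNA its log2 intensity was 4.75, 4.97 and 5.18 at high zinc and 7.60, 7.21 and 7.30 at low zinc. The control siRNA arrays gave 5.84, 5.98 and 6.62 at high zinc and 6.71, 7.10 and 7.02 at low zinc. None of the 3 MTF1 siRNA arrays at high zinc detected the probe, with detection p-values of 0.327, 0.131 and 0.0591, so its level there is only a bound. MTTP was therefore at least 4.45-fold lower at high than at low zinc with MTF1 siRNA (fitted change -2.40 ± 0.20, adjusted p = 8.24e-06). The bound sets each dim array at the higher of its own value and the lowest signal among detected probes. With control siRNA, where all arrays detected it, MTTP fell by 0.80 ± 0.20 (1.74-fold, adjusted p = 0.0186). That call was lost without control siRNA at high zinc replicate 1 or 2, or at low zinc replicate 2 or 3. Without background correction the MTTP changes were smaller, -1.03 with MTF1 siRNA, where APOB had -1.33, and -0.37 with control siRNA, and both passed. The change of -1.03 is a smaller difference than the 4.45-fold bound, which holds only for background-corrected values.

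Of the high-density lipoprotein proteins, APOA1, its main scaffold and the activator of cholesterol esterification in plasma, changed by little but with little spread. Its log2 intensity with MTF1 siRNA was 12.83, 12.85 and 12.79 at high zinc, against 13.46, 13.38 and 13.29 at low zinc. Cells with control siRNA gave 12.88, 12.72 and 12.85 at high zinc, against 13.17, 13.13 and 13.12 at low zinc. The zinc groups did not overlap with either siRNA. APOA1 fell by 0.55 ± 0.09 with MTF1 siRNA (adjusted p = 0.00116) and by 0.32 ± 0.09 with control siRNA (adjusted p = 0.0251). The control siRNA call was lost in 5 of the 12 fits that left out 1 array, namely control siRNA at high zinc replicates 2 and 3 and at low zinc replicates 1, 2 and 3. It was also lost with no filter on dim probes and when only the compared groups were fitted.

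APOA2, the second protein of high-density lipoprotein, separated by zinc with control siRNA but not with MTF1 siRNA. With MTF1 siRNA its log2 intensity was 12.31, 12.22 and 12.16 at high zinc and 12.16, 12.35 and 12.60 at low zinc, and these ranges overlapped. Cells with control siRNA gave 12.20, 12.12 and 12.14 at high zinc, below the 12.78, 12.45 and 12.87 at low zinc. The change was -0.14 ± 0.13 with MTF1 siRNA (adjusted p = 0.540), and APOA2 fell by 0.54 ± 0.13 with control siRNA (adjusted p = 0.0166). The difference between these responses did not pass (+0.40 ± 0.19, adjusted p = 0.323). The fall with control siRNA did not pass without control siRNA at high zinc replicate 3 or at low zinc replicate 1 or 3.

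APOM, a lipocalin that carries sphingosine-1-phosphate on high-density lipoprotein, was lower on every high-zinc array. With MTF1 siRNA its log2 intensity was 7.62, 7.43 and 7.40 at high zinc, against 8.05, 8.19 and 8.53 at low zinc. With control siRNA it was 7.33, 7.40 and 7.05 at high zinc, against 8.53, 8.17 and 8.15 at low zinc. APOM fell by 0.78 ± 0.15 with MTF1 siRNA (1.71-fold, adjusted p = 0.00520). With control siRNA it fell by 1.02 ± 0.15 (2.03-fold, adjusted p = 0.00112).

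APOC3, an inhibitor of lipoprotein lipase and of the uptake of triglyceride-rich particles, had the largest fall with control siRNA. In MTF1 siRNA cells its log2 intensity was 6.69, 6.43 and 6.67 at high zinc and 7.36, 7.87 and 8.40 at low zinc. In control siRNA cells it was 6.90, 6.67 and 6.65 at high zinc and 8.38, 7.83 and 8.46 at low zinc. The low-zinc MTF1 siRNA arrays spread over more than 1 log2 unit, yet all lay above the high-zinc arrays. APOC3 fell by 1.28 ± 0.23 with MTF1 siRNA (2.43-fold, adjusted p = 0.00296) and by 1.48 ± 0.23 with control siRNA (2.80-fold, adjusted p = 0.00143).

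APOC1, a small protein that inhibits cholesteryl ester transfer protein, varied more among replicates. In MTF1 siRNA cells its log2 intensity was 9.02, 8.72 and 8.63 at high zinc and 9.04, 9.62 and 9.71 at low zinc. In control siRNA cells it was 8.31, 8.72 and 9.04 at high zinc and 9.58, 9.74 and 9.74 at low zinc. The MTF1 siRNA groups were separated only by the gap between 9.02 and 9.04. APOC1 fell by 0.67 ± 0.20 with MTF1 siRNA (adjusted p = 0.0481) and by 1.00 ± 0.20 with control siRNA (adjusted p = 0.00687). The MTF1 siRNA call was lost in 9 of the 12 fits that left out 1 array, with adjusted p up to 0.151, and held without MTF1 siRNA at low zinc replicate 1 or control siRNA at high zinc replicate 1 or 3. It was also lost with median centring, with no filter on dim probes and when only the compared groups were fitted.

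APOE, the ligand that directs remnant particles to receptors, did not pass in either zinc comparison. The log2 intensity with MTF1 siRNA was 12.03, 12.10 and 12.00 at high zinc and 12.27, 12.27 and 12.07 at low zinc. The values with control siRNA were 12.36, 12.12 and 12.05 at high zinc and 12.22, 12.24 and 12.09 at low zinc. The zinc groups overlapped with both siRNAs. The change was -0.15 with MTF1 siRNA (95% interval -0.39 to 0.08, adjusted p = 0.380) and -0.01 with control siRNA (-0.24 to 0.22, adjusted p = 0.958).

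APOH, or beta-2-glycoprotein I, is a phospholipid-binding plasma protein. With MTF1 siRNA its log2 intensity was 7.47, 7.17 and 7.46 at high zinc and 8.29, 8.27 and 8.27 at low zinc. With control siRNA it was 7.70, 8.07 and 7.75 at high zinc and 8.20, 8.64 and 8.35 at low zinc. The MTF1 siRNA arrays at high zinc were the lowest of the 12, and the zinc groups did not overlap with either siRNA. APOH fell by 0.91 ± 0.14 with MTF1 siRNA (1.88-fold, adjusted p = 0.00101) and by 0.56 ± 0.14 with control siRNA (adjusted p = 0.0178). The control siRNA call was lost when arrays were centred on their medians, when only the compared groups were fitted, and without control siRNA at high zinc replicate 1 or 3 or at low zinc replicate 2. APOA4, an intestinal apolipoprotein of chylomicrons, was not well above background in any group and was not tested.

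**Figure D2:**
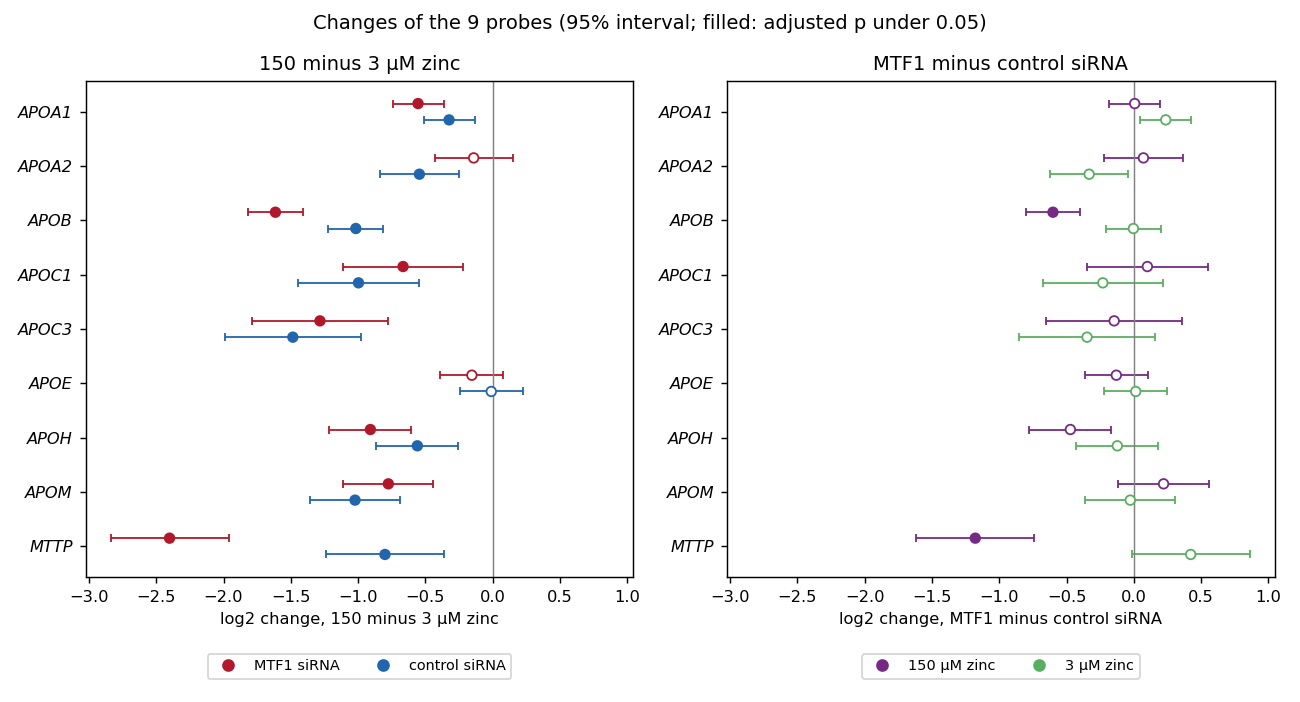
Fitted log2 changes of the 9 probes with 95% intervals, for 150 minus 3 µM zinc with each siRNA (left) and for MTF1 minus control siRNA at each zinc concentration (right). Filled points have an adjusted p under 0.05. At high zinc APOB and MTTP are the filled points for MTF1 siRNA, and no point is filled for MTF1 siRNA at low zinc.

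The siRNA comparisons ask which of these genes differed when MTF1 was targeted. At high zinc, 2 of the 9 probes fell with MTF1 siRNA, those for APOB and MTTP (22.2%, against 1.55% of all kept probes), and none rose (against 0.815%). APOB fell by 0.60 ± 0.09 log2 units (1.52-fold, adjusted p = 0.0143). MTTP was at least 1.91-fold lower with MTF1 siRNA (fitted change -1.18 ± 0.20, adjusted p = 0.0187). Without background correction that change was -0.42 and still passed, a smaller difference than this bound. The arrays did not overlap for either gene. APOH was also lower on all 3 MTF1 siRNA arrays, with a change of -0.47 ± 0.14 that did not pass (adjusted p = 0.0936), and APOM was higher on all 3, with +0.22 ± 0.15 (adjusted p = 0.437). The arrays were all lower for 13.8% and all higher for 12.9% of kept probes. The other 5 probes overlapped, with changes between -0.15 for APOC3 and 0.10 for APOC1.

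These 2 calls were close to the threshold. Neither gene passed when only the compared groups were fitted (adjusted p = 0.0721 for APOB and 0.0694 for MTTP), or without MTF1 siRNA at high zinc replicate 1 (0.0649 and 0.0762) or control siRNA at high zinc replicate 2 (0.0535 and 0.0541). APOB alone was lost without control siRNA at high zinc replicate 3 (0.0525), and MTTP alone without MTF1 siRNA at high zinc replicate 2 (0.0693) or with no filter on dim probes (0.0519). APOH passed without background correction and on the authors' log2 values (adjusted p = 0.0487 in both), and with a variance trend and robust prior (0.0380). Those settings called 1262, 1262 and 1172 of all kept probes, against 412 as reported. Over all kept probes this comparison called 142 higher and 270 lower, and 158 higher and 163 lower with arrays centred on their medians.

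At low zinc limma called 0 of the 9 probes for MTF1 siRNA (against 0.103% of all kept probes), and 2 had an unadjusted p under 0.05 (against 14.3%). Those were APOA1, with +0.24 ± 0.09 and arrays all higher (adjusted p = 0.264), and APOA2, with -0.33 ± 0.13 (adjusted p = 0.293). MTTP was higher on all 3 MTF1 siRNA arrays, with +0.42 ± 0.20 (adjusted p = 0.367), the opposite sign to its change at high zinc. Arrays were all higher in this way for 11.3% of kept probes. The APOB difference was 0.00 with a 95% interval of -0.21 to 0.20.

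The test of whether the zinc response itself differed between siRNAs called 0 of the 9 probes (against 0.023% of all kept probes), and 2 had an unadjusted p under 0.05 (against 15.8%). The response with MTF1 siRNA minus that with control siRNA was -1.60 ± 0.28 for MTTP (95% interval -2.22 to -0.98, unadjusted p = 1.18e-04, adjusted p = 0.109). For APOB it was -0.60 ± 0.13 (95% interval -0.89 to -0.31, unadjusted p = 7.18e-04, adjusted p = 0.161). The MTTP value rests on arrays that did not detect the probe, and was -0.66 both without background correction and on the authors' log2 values, where that of APOB was -0.46. Both genes passed without background correction (adjusted p = 0.0317 for MTTP and 0.0429 for APOB), on the authors' log2 values (0.0316 and 0.0429) and with a variance trend and robust prior (0.0169 and 0.0393). Those settings called 155, 155 and 131 of all kept probes, against 4 as reported, and the first 2 are nearly the same setting. Among the 9, the zinc change was more negative with MTF1 siRNA for APOA1, APOB, APOE, APOH and MTTP, and less negative for APOA2, APOC1, APOC3 and APOM.

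Other genes of lipoprotein metabolism were counted from 4 lists of 102 genes, of which 50 had a probe that was kept, 1 probe for each gene. With MTF1 siRNA 4 of the 50 rose and 14 fell at high zinc (against 7.06% higher and 7.93% lower of all kept probes), with a median change of -0.14 (against -0.01). With control siRNA 2 rose and 11 fell (against 8.43% higher and 8.73% lower), with a median of -0.12 (against 0.00). In both comparisons the share of the 50 that rose was close to or below that of all kept probes. These lists too were chosen with earlier results of these data known. ABCA1, the transporter that passes cholesterol to APOA1, averaged 7.27 ± 0.09 at high and 9.20 ± 0.07 at low zinc with MTF1 siRNA (SD, n = 3 each). With control siRNA it averaged 7.55 ± 0.15 at high and 8.91 ± 0.14 at low zinc. ABCA1 fell by 1.93 ± 0.11 with MTF1 siRNA (adjusted p = 3.07e-07) and by 1.36 ± 0.11 with control siRNA (adjusted p = 9.59e-06). VLDLR, a receptor that takes up triglyceride-rich particles, went the other way. It rose with MTF1 siRNA (adjusted p = 0.00107), where only 1 of the low-zinc arrays detected it, so the fitted 1.15 ± 0.18 is uncertain. With control siRNA, where no low-zinc array did, it was at least 1.83-fold higher at high zinc (adjusted p = 5.71e-04). As for MTTP, that bound holds only for background-corrected values. The VLDLR probe was kept only through the high-zinc groups, so its rises are not independent of that rule.

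In the list with ABCA1 and VLDLR, of receptors, transporters and lipases, 9 of 23 genes were measured, and 2 fell and 1 rose with each siRNA, against the shares of all kept probes just given. Of 30 genes that supply and package lipid, 19 were measured. SOAT2, which makes the cholesteryl esters of the particle core, fell by 1.45 ± 0.14 with MTF1 siRNA (adjusted p = 2.71e-05) and by 1.19 ± 0.14 with control siRNA (adjusted p = 1.86e-04). DGAT1, which makes triglyceride, fell by 0.64 ± 0.11 with MTF1 siRNA (adjusted p = 0.00213) and by 0.94 ± 0.11 with control siRNA (adjusted p = 1.80e-04). CIDEB, a lipid droplet protein that takes part in lipidating such particles, was not detected on any high-zinc array. Its probe was kept only through the low-zinc groups, so its falls are not independent of that rule. CIDEB was at least 2.30-fold lower at high zinc with MTF1 siRNA (adjusted p = 3.91e-06) and at least 1.49-fold lower with control siRNA (adjusted p = 6.29e-04). As for MTTP, these bounds hold only for background-corrected values. P4HB, the small subunit partner of MTTP, rose by 0.37 ± 0.09 with MTF1 siRNA (adjusted p = 0.0208), and its change with control siRNA was 0.18 ± 0.09 (adjusted p = 0.209). In this list 5 fell and 1 rose with MTF1 siRNA (against 7.93% and 7.06% of all kept probes), and 4 fell and 0 rose with control siRNA (against 8.73% and 8.43%).

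Among 14 other apolipoproteins 4 were measured and 1 fell with both siRNAs (against 7.93% of all kept probes with MTF1 siRNA and 8.73% with control siRNA). That was APOD, a lipocalin, which fell by 0.96 ± 0.17 with MTF1 siRNA (adjusted p = 0.00291) and by 0.63 ± 0.17 with control siRNA (adjusted p = 0.0275). Of 35 transcriptional regulators of apolipoprotein genes 18 were measured, of which 6 fell and 2 rose with MTF1 siRNA (against 7.93% and 7.06% of all kept probes) and 4 fell and 1 rose with control siRNA (against 8.73% and 8.43%). RXRA, the partner of lipid-sensing nuclear receptors, fell by 0.77 ± 0.09 with MTF1 siRNA (adjusted p = 9.86e-05) and by 0.76 ± 0.09 with control siRNA (adjusted p = 1.59e-04). CEBPB, a stress-responsive transcription factor, rose by 0.43 ± 0.10 with MTF1 siRNA (adjusted p = 0.0116) and by 0.34 ± 0.10 with control siRNA (adjusted p = 0.0311). FOXA2, a forkhead factor of liver and gut, rose by 0.50 ± 0.10 with MTF1 siRNA (adjusted p = 0.00745), and its change with control siRNA was 0.32 ± 0.10 (adjusted p = 0.0574).

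For MTF1 against control siRNA, the 50 genes gave 2 falls at high zinc, SEC23B and FOXA1 (against 1.55% of all kept probes), and no rise (against 0.815%). SEC23B, a coat protein of vesicles leaving the endoplasmic reticulum, averaged 10.77 ± 0.06 with MTF1 siRNA and 11.22 ± 0.12 with control siRNA (adjusted p = 0.0424), and its dimmer probe gave an adjusted p of 0.0843. FOXA1, another forkhead factor, averaged 10.17 ± 0.06 with MTF1 siRNA and 10.59 ± 0.08 with control siRNA (adjusted p = 0.0390). Neither passed with median centring, no filter, a replicate block or only the compared groups. At low zinc limma called 0 of the 50, with 9 at an unadjusted p under 0.05 (against 14.3% of all kept probes). For the difference in zinc response it called 0, with 4 at an unadjusted p under 0.05 (against 15.8%).

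**Figure D3:**
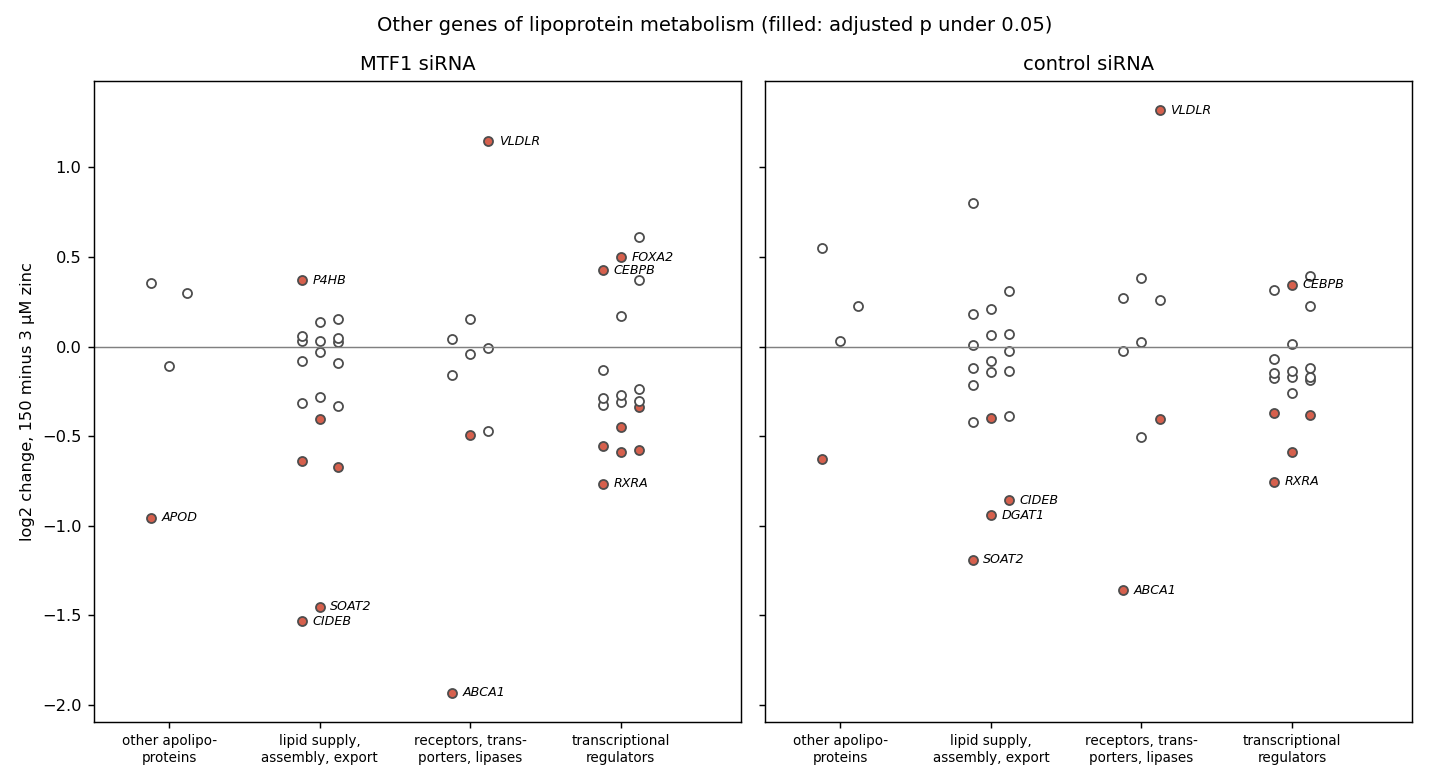
Fitted log2 change (150 minus 3 µM zinc) of the 50 other genes of lipoprotein metabolism, by list, with MTF1 siRNA (left) and control siRNA (right). Filled points have an adjusted p under 0.05, and names mark the genes that rose or fell most. ABCA1 is the lowest and VLDLR the highest point in both panels.

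Plasma proteins typical of hepatocytes moved with the apolipoproteins. Of 9 such markers 7 were above background, and albumin (ALB), transthyretin (TTR), the fibrinogen chains FGA, FGB and FGG, and fetuin-A (AHSG) fell at high zinc with both siRNAs. Of all kept probes 7.93% fell with MTF1 siRNA and 8.73% with control siRNA. Haptoglobin (HP) did not pass in either (adjusted p = 0.121 with MTF1 siRNA and 0.0647 with control siRNA), and CYP2E1 and CYP8B1 were not above background. The log2 of the summed intensity of the list was 12.18 to 12.31 at high and 13.28 to 13.39 at low zinc with MTF1 siRNA. It was 12.41 to 12.57 at high and 13.12 to 13.23 at low zinc with control siRNA. The epithelial markers summed to 14.82 to 14.88 at high and 14.80 to 15.01 at low zinc with MTF1 siRNA, and to 15.03 to 15.13 at high and 14.84 to 14.91 at low zinc with control siRNA. Within that list, VIL1, CDH17 and CDH1 fell with MTF1 siRNA (by 0.42, 0.33 and 0.39), and the keratins KRT8 and KRT18 rose with MTF1 siRNA (+0.34 and +0.86) and with control siRNA (+0.43 and +0.47). EPCAM did not pass in either comparison, nor did VIL1, CDH17 and CDH1 with control siRNA. The part of either list in the apolipoprotein changes was not tested.

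Of the markers of other cells, the 4 of 6 fibroblast genes above background summed to 10.37 to 10.50 at high and 9.67 to 9.87 at low zinc with MTF1 siRNA. With control siRNA they summed to 10.55 to 10.58 at high and 10.02 to 10.11 at low zinc, while DCN and PDGFRB were not above background. The list went both ways: the collagen gene COL1A2 rose with MTF1 siRNA (+1.00) and control siRNA (+0.79), COL1A1 fell by 0.64 with control siRNA and had -0.21 with MTF1 siRNA (adjusted p = 0.344), and COL3A1 and LUM did not pass. Of 5 leukocyte markers 2 were above background, CD14 and LYZ, with sums of 9.47 to 9.51 at high and 9.93 to 10.20 at low zinc with MTF1 siRNA and of 9.56 to 9.69 at high and 9.91 to 9.99 at low zinc with control siRNA. Of 3 endothelial markers CDH5 was above background, at 6.12 to 6.52 at high and 5.22 to 5.83 at low zinc with MTF1 siRNA and at 5.86 to 6.17 at high and 5.45 to 5.76 at low zinc with control siRNA, and PECAM1 and VWF were not. LYZ fell with both siRNAs and CD14 passed with neither, and CDH5 rose with MTF1 siRNA (+0.83) and did not pass with control siRNA. Their part in the changes was not tested.

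The genes whose log2 intensity followed APOB most closely over the 12 arrays, among 10575 named genes, were CPS1, RALGPS1, CXCL12, AFP and SLC16A10, with Pearson's r of 0.993, 0.988, 0.987, 0.986 and 0.983. CPS1 is the first enzyme of the urea cycle, AFP a fetal plasma protein, CXCL12 a chemokine and SLC16A10 a transporter of aromatic amino acids. At high zinc CPS1 fell by 2.27 log2 units with MTF1 siRNA (adjusted p = 3.87e-08) and by 1.63 with control siRNA (adjusted p = 7.27e-07). The genes most like MTTP were PCMTD2, ZNF219, PIGN, LTA4H and ALDH7A1, with r of 0.991, 0.980, 0.977, 0.975 and 0.972. All 5 fell at high zinc with MTF1 siRNA, by 0.55 to 0.85, and none passed with control siRNA, where their changes lay between -0.27 and -0.15. These values describe 12 arrays in 4 groups, so a shared difference between groups alone makes r high. Because the genes were picked by r on these same arrays, their zinc changes follow from that choice and are no separate result.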

How the data were processed

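RNA of 12 Caco-2 samples was labelled with biotin and hybridised to HumanHT-12 V4 beadchips, per the labels' protocols. The deposited table gives raw intensity and a detection p-value per probe, per the file headers. The authors' log2 values were also deposited, with the steps behind them not given in the sources used here. They ranked probes as the raw intensities did on every array (Spearman correlation 1). For MTF1 siRNA at high zinc, they and the values without background correction each gave 571 higher and 691 lower calls. As alternatives these are therefore nearly the same setting. Raw intensities were background-corrected by normexp with parameters from the detection p-values (offset 16), quantile normalised and taken to log2 (neqc, limma 3.58.1, R 4.3.3). limma was fitted with 1 mean per group over all 12 arrays, with empirical Bayes variances, 5 comparisons and Benjamini-Hochberg adjustment over 17413 probes at a threshold of 0.05. The fitting code was tested on simulated data. Of 47323 probes, 30113 carried 1 gene symbol in the platform annotation, 8 carried several and 17202 carried none. Where a listed gene had several kept probes, the one of highest mean was used. Named were all 10 genes, MTF1, the listed genes that rose most (up to 5) and fell most (up to 5) in a comparison, and the 5 genes most correlated with APOB and with MTTP. The genes and lists were chosen with earlier results of these data known. Only 3 arrays a group limit the precision, and no slide or scan batch is given in the sources used here. Replicate numbers were not taken as pairs, since same-numbered samples' deviations correlated between -0.10 and 0.16, and over 0.1 for 1 of 12 pairs. Alternatives were no background correction, median centring, the authors' values, no or a stricter detection filter (p under 0.01), 1 probe a gene, a replicate block, only the compared groups, a variance trend with robust prior, array weights, and each array left out.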

Additional observations from a re-analysis of the deposited data

How the results depend on the processing

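Of 17 changes past the threshold among the 9 probes, 12 stayed past it under all 10 alternatives that gave a value, 10 without each of the 12 arrays in turn, and 10 under both, and none reversed. Among the 10 alternatives, the authors' values and no background correction are nearly the same setting. Counts are of the 9 probes and of the 50 other genes of lipoprotein metabolism. Leaving out each array gave 5 to 8 probes (8 as reported) and 9 to 14 genes (13 as reported) for zinc with control siRNA, 6 to 7 probes and 14 to 19 genes for zinc with MTF1 siRNA, and 0 to 2 probes and 0 to 2 genes for MTF1 siRNA at high zinc (2 and 2 as reported). For MTF1 siRNA at high zinc, 1 probe passed with no filter on dim probes and 0 with only the compared groups, 3 passed without background correction, on the authors' log2 values and with a variance trend and robust prior, and 0 genes passed with median centring, no filter or only the compared groups. With the replicate block, 0 genes passed there, against 2, and the block gave 8, 7, 0, 2 and 0 of the probes in the 5 comparisons, as in the fit without it. With only the compared groups, 7 genes passed for zinc with control siRNA. For MTF1 siRNA at low zinc 1 gene passed under the stricter filter. For the difference in zinc response 2 probes passed without background correction, on the authors' log2 values and with a variance trend and robust prior. Those settings called 155, 155 and 131 of all kept probes, against 4 as reported. Over all kept probes, leaving out an array gave 34 to 425 calls for MTF1 siRNA at high zinc (412 as reported), 1819 to 2989 for zinc with control siRNA (2989) and 1786 to 2662 for zinc with MTF1 siRNA (2610). Median centring gave 3 higher and 5 lower calls for MTF1 siRNA at low zinc (3 and 15 as reported), and 0 and 3 for the difference in zinc response (1 and 3), which the authors' values put at 113 and 42. The causes were not tested.

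On values without background correction several changes were smaller: the MTTP change at high zinc with MTF1 siRNA was -1.03 against -2.40, with control siRNA -0.37 against -0.80, and for MTF1 siRNA at high zinc -0.42 against -1.18. The APOC3 changes were -0.77 against -1.28 with MTF1 siRNA and -0.94 against -1.48 with control siRNA. APOM and APOH also changed less on the authors' log2 values, nearly the same setting. APOM had -0.54 against -0.78 with MTF1 siRNA and -0.69 against -1.02 with control siRNA. APOH had -0.62 against -0.91 with MTF1 siRNA and -0.41 against -0.56 with control siRNA.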
